A study of Homo sapiens with 32 samples.

Results

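The genes described here are 49 interferon-stimulated genes, taken as a list of symbols matched exactly to the gene column of the deposited expression table. All 49 were present among its 25066 features. The RNA came from TMD8 and DOHH2, established human lines of diffuse large B-cell lymphoma (DLBCL), both carrying an engineered Cas9. TMD8 belongs to the activated B cell subtype, whereas DOHH2 is germinal centre-like. Cells of each line received CSKi at 500 nM, or the vehicle DMSO, and were collected after 1, 3, 6 or 24 h. This gave 16 groups of 2 libraries, 32 libraries in all. CSKi is an inhibitor of CSK, the C-terminal Src kinase, which holds Src family kinases in their closed form. The labels name no added interferon.

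Interferons signal through cell surface receptors whose kinases JAK1 and TYK2 phosphorylate STAT proteins. STAT2 and IRF9 are subunits of the resulting complex ISGF3, which binds interferon-stimulated response elements in the promoters of its target genes. Another sequence, the gamma-activated site, is bound by STAT dimers. The products of the target genes sense foreign RNA, degrade or sequester it, block virus assembly, attach the ubiquitin-like protein ISG15 to other proteins, or feed back on the pathway. Many are transcribed at a basal level in lymphoid cells without added interferon, and STAT2, IRF9 and IRF7 are themselves targets of the complex.

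RefSeq promoter windows on GRCh38.p14, from 250 bases before to 50 bases after each annotated start, were found for 40 of the 49 genes (81.6%). They were searched on both strands for the core of the interferon-stimulated response element (GAAA, any 2 bases, then GAAA) and for TTCNNNGAA, the core of the gamma-activated site. The response element core was present in 26 of the 40 genes (65.0%), against 3.57% of all 35116 promoter windows and 4.38% of all 27305 genes. The gamma-activated site core was present in 13 of the 40 genes (32.5%), against 7.66% of all windows and 9.38% of all genes. A match is a description of the sequence only, and a missing match says only that these letters are not in the window. The 200 bases before the start are shown for 6 genes whose levels are followed below, because they show the spacing and orientation of the matches. Capitals mark a match to either core.
ISG15: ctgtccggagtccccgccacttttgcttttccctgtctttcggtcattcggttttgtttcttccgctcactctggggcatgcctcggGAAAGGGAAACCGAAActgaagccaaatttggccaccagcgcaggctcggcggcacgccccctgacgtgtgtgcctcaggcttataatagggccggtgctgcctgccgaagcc
IFIT1: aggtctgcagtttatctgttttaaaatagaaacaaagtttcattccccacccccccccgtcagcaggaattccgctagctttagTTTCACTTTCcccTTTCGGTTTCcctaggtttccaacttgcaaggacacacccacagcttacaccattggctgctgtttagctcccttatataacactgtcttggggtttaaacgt
OAS3: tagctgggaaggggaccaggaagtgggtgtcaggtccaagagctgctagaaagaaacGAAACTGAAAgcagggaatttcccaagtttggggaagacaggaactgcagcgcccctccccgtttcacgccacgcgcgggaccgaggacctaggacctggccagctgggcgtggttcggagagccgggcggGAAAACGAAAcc
ISG20: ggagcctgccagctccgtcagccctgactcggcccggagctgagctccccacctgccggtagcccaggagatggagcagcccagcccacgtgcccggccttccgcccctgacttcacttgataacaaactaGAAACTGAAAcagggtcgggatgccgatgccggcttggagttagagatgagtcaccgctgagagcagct
OAS1: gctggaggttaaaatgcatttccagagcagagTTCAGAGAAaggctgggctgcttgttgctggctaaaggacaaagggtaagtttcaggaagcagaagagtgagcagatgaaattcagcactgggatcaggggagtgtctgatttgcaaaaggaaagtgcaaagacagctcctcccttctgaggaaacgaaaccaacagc
IRF9: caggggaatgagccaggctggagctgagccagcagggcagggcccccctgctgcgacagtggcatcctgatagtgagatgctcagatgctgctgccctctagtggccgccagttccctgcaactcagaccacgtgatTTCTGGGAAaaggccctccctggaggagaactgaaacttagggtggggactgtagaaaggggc
All 6 lie on the plus strand, at chr1:1013297-1013496 for ISG15, chr10:89392423-89392622 for IFIT1, chr12:112938274-112938473 for OAS3, chr15:88638816-88639015 for ISG20, chr12:112906762-112906961 for OAS1 and chr14:24161065-24161264 for IRF9.

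In ISG15, 2 matches of the response element core overlapped, beginning 113 and 107 bases before the start. IFIT1 held 2 matches on the opposite strand, beginning 116 and 103 bases before the start. OAS3 held matches at 143 and 12 bases, and ISG20 held 1 match at 69 bases. In OAS1 and IRF9 only the gamma-activated site core matched within the window, at 168 and 63 bases. IFIT2, MX2, OAS2, OASL, IRF7, DHX58, TRIM22, TRAFD1 and USP18 had no entry. Over all the genes searched, 40 of the 51 matches of the response element core began within 150 bases before the start (78.4%), and 8 of the 51 overlapped a match of the other core.

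**Figure D1:**
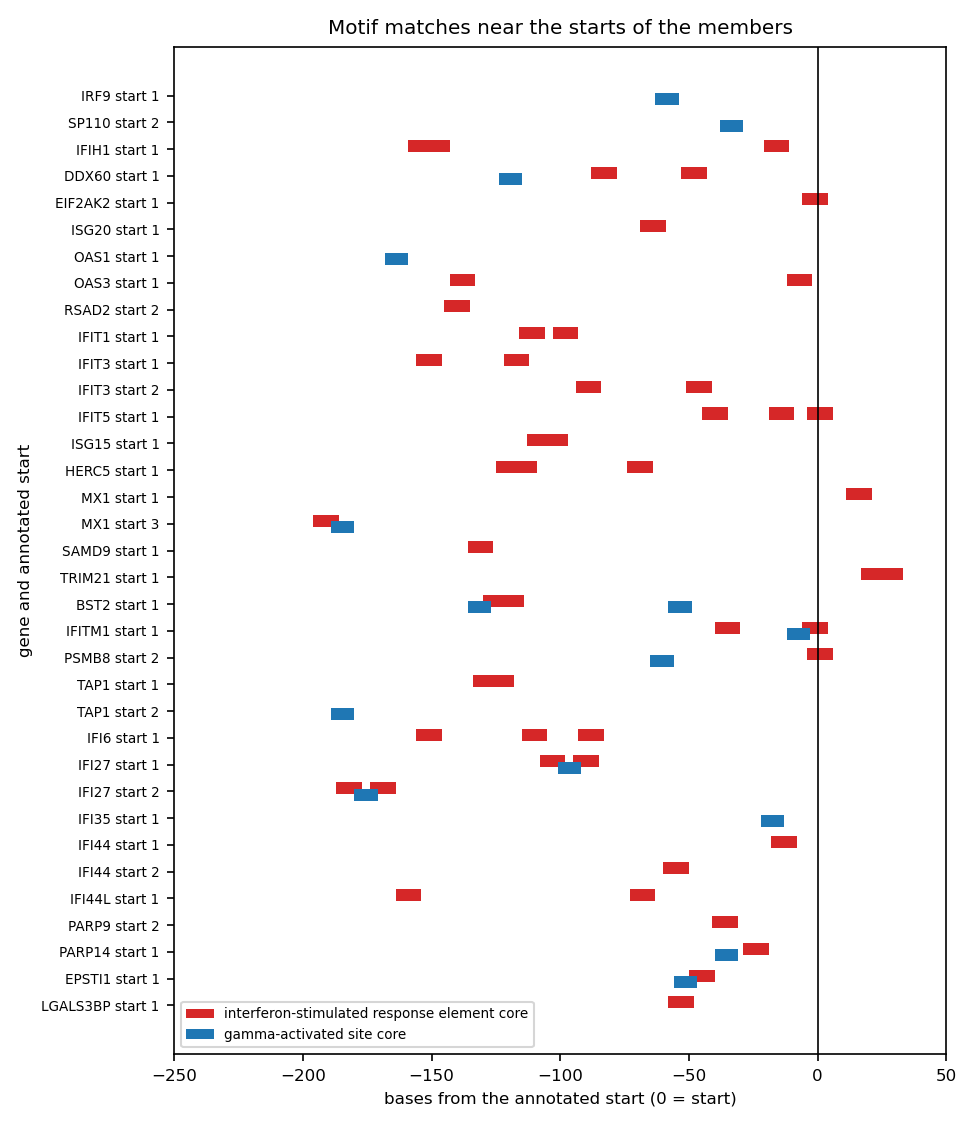
Matches of both motif cores by distance in bases from each annotated start (x axis), for the genes and starts with at least 1 match (y axis). Red bars mark the interferon-stimulated response element core and blue bars the gamma-activated site core, and most red bars lie within 150 bases before the start.

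Libraries held 12273442 to 24907030 mapped reads, with a median of 17196809.5. Each duplicate is labelled a biological replicate without saying whether it was a separate culture, so the p-values measure only the spread between these libraries. Levels are given as normalized counts, the antilog of the deposited log2 values, for replicate 1 and then replicate 2. Differences are log2 differences of the means of 2 libraries a group, ± SE, from limma with Benjamini-Hochberg adjustment over 12000 features, with an adjusted p under 0.05 taken as a call. The B cell genes CD79A, CD79B and MS4A1 were expressed in both lines. Of the type markers, MME averaged 0.5 reads in TMD8 and 5890 in DOHH2, and IRF4 averaged 19500 reads in TMD8 and 8.19 in DOHH2. LMO2, listed with MME as a germinal centre type marker, went the other way, at 1240 reads in TMD8 and 459 in DOHH2. Markers of T and NK cells summed to 50.7 to 130.4 normalized counts in any library, and CD2 had no read. The DOHH2 libraries at 24 h stood apart and go against their labels, as described below, so DOHH2 was fitted on its 12 libraries at 1, 3 and 6 h. In bulk RNA, fewer cells expressing a gene and less RNA per cell cannot be told apart.

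Of the 49 genes, 45 passed the filter on low values in TMD8 and 47 in DOHH2. In TMD8, CMPK2, a mitochondrial nucleotide kinase, had no read in any of the 16 libraries. For 1 library taken alone, counting error allows this for up to 3 expected reads, and over all 16 the limit is lower. RSAD2, which encodes viperin and overlaps CMPK2, averaged 1.69 reads in TMD8, and IFI44 averaged 19.4. HERC5, the ligase for ISG15, had 1 read in each of 3 TMD8 libraries and of 1 DOHH2 library, and was tested in neither line. IFIT5, an RNA-binding tetratricopeptide protein, averaged 3.25 reads in DOHH2 and was not tested within that line. The spans of 21 of the 49 genes overlap another gene, among them PSMB8 and TAP1 with PSMB8-AS1 and the IFIT genes with LIPA. The sources used here do not say whether the counting used strand, so reads of such pairs may be shared.

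**Figure D2:**
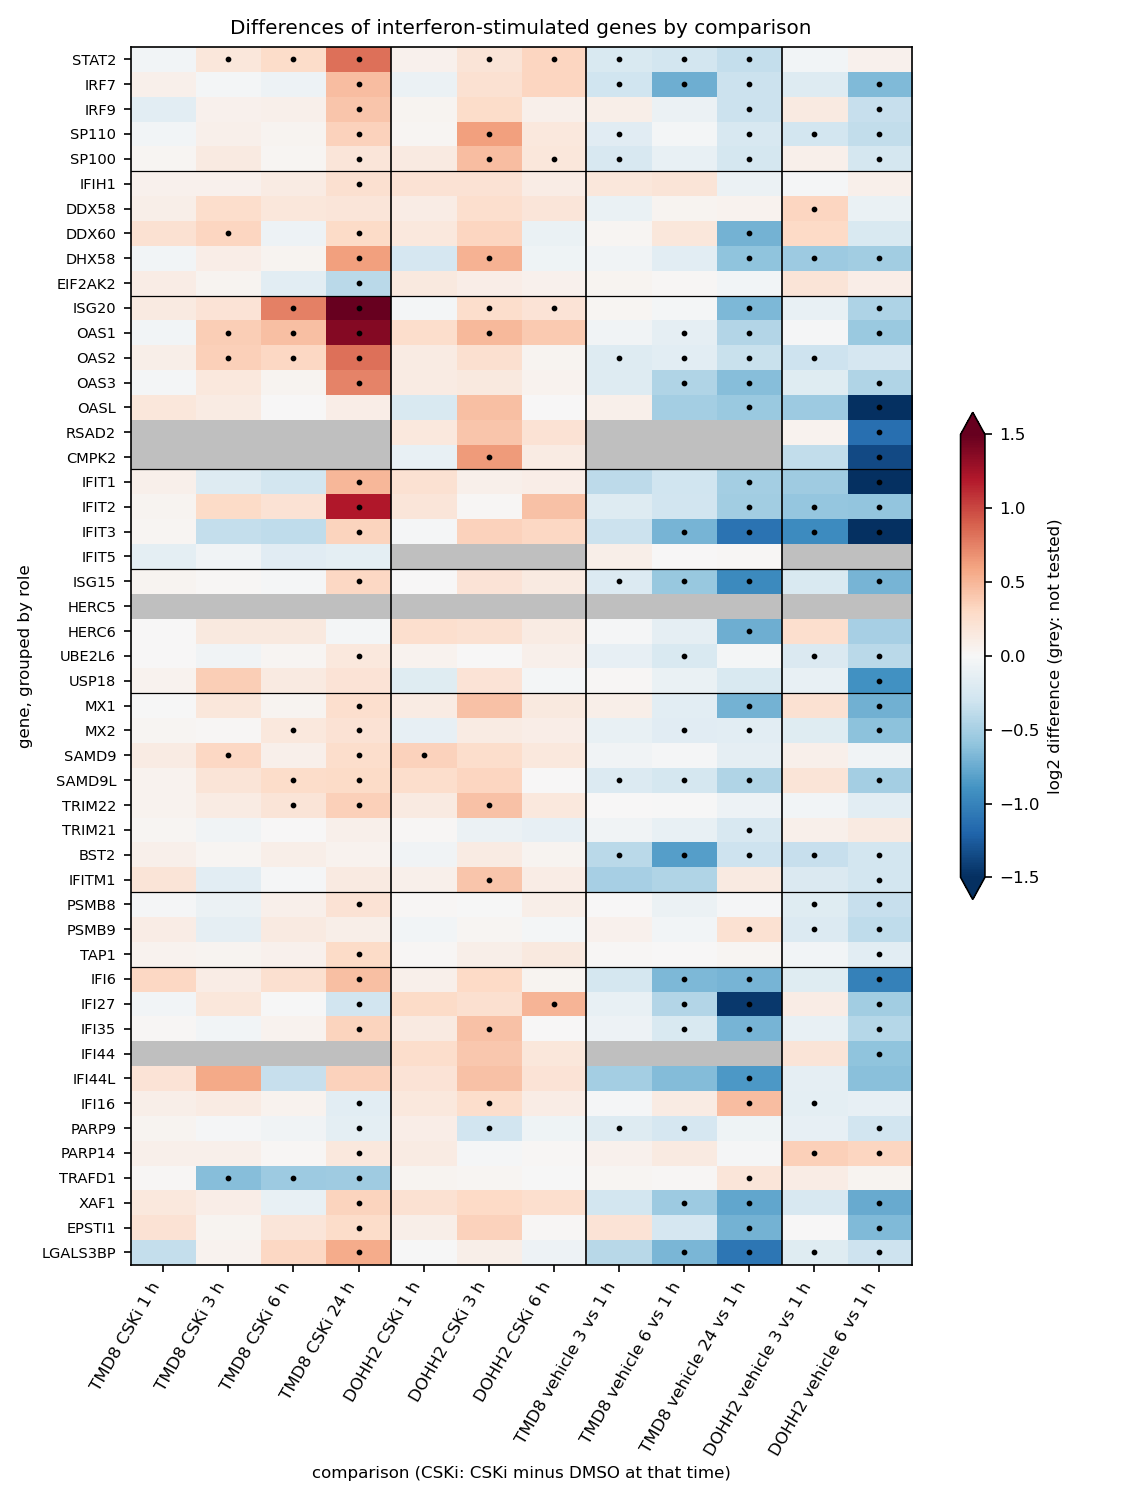
Log2 differences (colour) for all 49 genes, grouped by role (rows), in 12 comparisons (columns). Dots mark differences called by limma and grey marks genes not tested. The TMD8 CSKi column at 24 h is mostly red, and the vehicle columns at the later times are mostly blue in both lines.

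In TMD8, CSKi raised few interferon-stimulated genes in the first 6 h and most of them at 24 h. At 24 h, 30 of 45 tested genes were higher and 5 were lower than in vehicle, while 54% of the 12000 features were called, 27.9% higher and 26.2% lower. The median log2 difference was 0.28 over the 45 genes and 0.02 over all features. The largest increases were in ISG20, an exonuclease that degrades RNA (2.83-fold), OAS1, a synthetase of oligoadenylates that activate RNase L (2.59-fold), and IFIT2, which binds foreign RNA (2.31-fold). Of the 35 called genes, only IFIH1 had groups that overlapped. With 2 libraries a group a call mostly goes with groups apart, and the share over all features was not counted.

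Of the transcription factors, all 5 rose at 24 h. STAT2, the transactivating subunit of ISGF3, had 8243 and 7718 normalized counts with CSKi and 4699 and 4282 in vehicle (log2 difference 0.83 ± 0.05, adjusted p = 1.41e-13). Both CSKi libraries lay above every other TMD8 library, whose highest value was 5793. IRF9, the DNA-binding subunit, had 2790 and 2616 with CSKi and 2080 and 1960 in vehicle (0.42 ± 0.05). IRF7, which drives interferon transcription, had 1062 and 1009 with CSKi and 735 and 768 in vehicle (0.46 ± 0.07). Neither pair of groups overlapped. The nuclear body protein genes SP110 (0.34 ± 0.06) and SP100 (0.18 ± 0.05) rose less.

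Of the 5 tested OAS genes and effectors acting on RNA, 4 rose at 24 h, with a median log2 difference of 0.82. OAS1 had 5060 and 5138 normalized counts with CSKi and 1971 and 1967 in vehicle (1.37 ± 0.05, adjusted p = 1.55e-16). Vehicle OAS1 lay between 1967 and 2734 at every time, below both CSKi libraries at 3, 6 and 24 h. ISG20 had 1176 and 932 with CSKi and 382 and 358 in vehicle (1.5 ± 0.09), and its 2 CSKi libraries differed more from each other than the vehicle libraries did. OAS2 had 2996 and 3286 with CSKi and 1847 and 1701 in vehicle (0.82 ± 0.05). OAS3 rose by 0.75 ± 0.07, and OASL, the family member without synthetase activity, was at 0.10 ± 0.21 (adjusted p = 0.696).

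In the IFIT family, IFIT2 (values by library for it, EIF2AK2, BST2 and the DOHH2 vehicle genes were added after they were seen) had 655 and 669 normalized counts with CSKi at 24 h and 292 and 282 in vehicle (1.21 ± 0.11), without overlap. IFIT1 (0.49 ± 0.17) and IFIT3 (0.33 ± 0.13) rose by less and lost their calls without either the vehicle or the CSKi replicate 2 library at 24 h, where the adjusted p reached 0.419 and 0.203. IFIT5 was at -0.14 ± 0.09 (adjusted p = 0.201). In the ISG15 pathway, ISG15 had 1618 and 1679 with CSKi and 1276 and 1376 in vehicle (0.31 ± 0.07, adjusted p = 0.000235). UBE2L6, its conjugating enzyme, rose by 0.16 ± 0.05, a call lost without vehicle replicate 2 or CSKi replicate 1 (adjusted p up to 0.0844). USP18, which removes ISG15 and dampens receptor signalling, was at 0.21 ± 0.14 and HERC6 at -0.03 ± 0.08, neither called.

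Among the RNA sensors, DHX58 (LGP2) rose by 0.61 ± 0.09, DDX60 by 0.29 ± 0.10 and IFIH1 (MDA5) by 0.25 ± 0.10, while DDX58 (RIG-I) missed the threshold at 0.19 ± 0.08 (adjusted p = 0.063). IFIH1 ranged from 0.03 to 0.46 over the alternatives and left-out libraries. Its call was lost without CSKi replicate 2 or either vehicle library, where the adjusted p reached 0.795, and in 6 of 9 settings. DDX60 lost its call without vehicle or CSKi replicate 2 (adjusted p up to 0.162) and in 3 of 9 settings. EIF2AK2, the kinase PKR that halts translation on double-stranded RNA, fell by 0.41 ± 0.08. It had 687 and 868 normalized counts with CSKi and 994 and 1056 in vehicle, without overlap. Of 8 restriction factors, 5 rose, led by TRIM22 (0.36 ± 0.04) and SAMD9L (0.29 ± 0.06). MX1, a dynamin-like GTPase that traps viral nucleocapsids, had 3117 and 3380 with CSKi and 2914 and 2567 in vehicle (0.25 ± 0.07), and lost its call without vehicle replicate 2 (adjusted p = 0.105). BST2 (tetherin) was at 0.05 ± 0.05 and TRIM21 at 0.08 ± 0.06, neither called. TAP1 (0.29 ± 0.06) and PSMB8 (0.22 ± 0.05), which load and cut peptides for MHC class I, rose, and PSMB9 was not called.

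The other 4 genes that fell at 24 h were TRAFD1, IFI16, IFI27 and PARP9. TRAFD1, a zinc finger protein that restrains innate immune signalling, had 5356 and 5127 normalized counts with CSKi and 7665 and 7554 in vehicle (-0.54 ± 0.04, adjusted p = 4.09e-11). The calls of IFI16, a sensor of DNA (-0.16 ± 0.05), IFI27 (-0.28 ± 0.10) and PARP9 (-0.14 ± 0.06) were each lost without at least 1 library. Of the 35 calls, 20 were kept in every alternative setting and without any library, 18 higher and 2 lower. Without vehicle replicate 2 at 24 h, 23 genes were called, 21 higher and 2 lower.

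Several marker sums moved between the same groups of TMD8. The 6 fibroblast and epithelial markers summed to 1339.8 and 1495.9 normalized counts with CSKi at 24 h and to 537.7 and 555.4 in vehicle. COL1A1 held most reads of that list in TMD8, with a mean of 314. KRT18 had no read in any TMD8 library and EPCAM averaged 0.0625 reads. The 7 myeloid markers summed to 137.3 and 177.3 with CSKi and to 84 and 104.1 in vehicle, and 6 of the 7 averaged under 10 reads. The 5 B cell markers summed to 114422 and 117424.1 with CSKi and to 83751.3 and 84887.8 in vehicle. The germinal centre type list was lower with CSKi, at 3235.2 and 3004.2 against 5037.5 and 5019.7, and so was the activated B cell type list, at 77263.4 and 76566.9 against 88478 and 89076.7. The plasmacytoid dendritic cell list summed to 27999.3 and 28356 against 26493.6 and 26358.7. The part of these genes in the result was not tested.

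**Figure D3:**
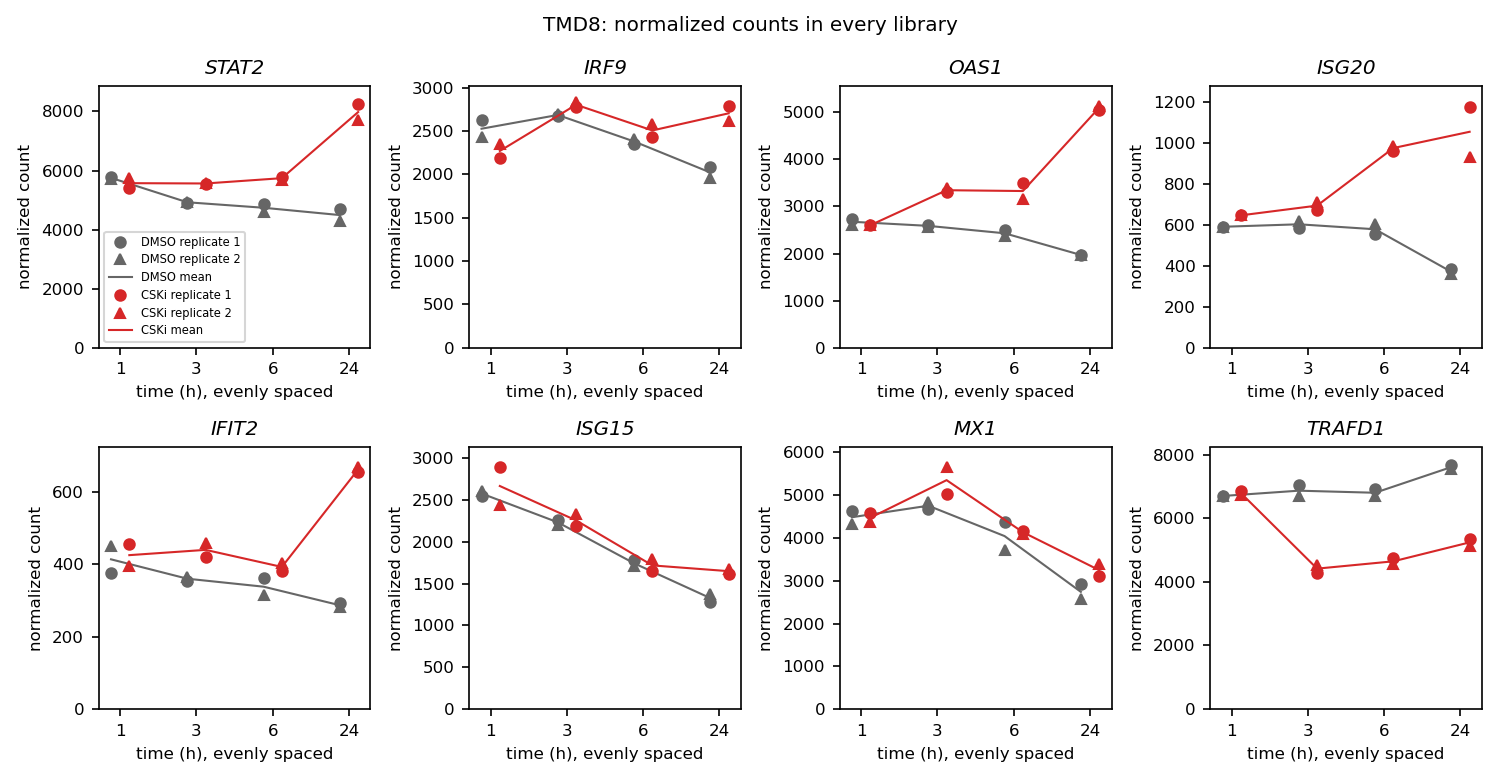
Normalized counts (y axis, from 0) of 8 genes in every TMD8 library at 1, 3, 6 and 24 h (x axis, times evenly spaced). Grey is DMSO and red CSKi, circles are replicate 1, triangles replicate 2 and lines join group means. OAS1, ISG20, IFIT2 and STAT2 part from vehicle upwards, TRAFD1 parts downwards from 3 h, and ISG15 and MX1 decline in both arms.

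At the earlier times fewer genes were called in TMD8. At 1 h, 0 of 45 genes were called by limma, with 4 at an unadjusted p under 0.05 and 0 called by voom on the recovered reads, and 0.05% of all features were called. At 3 h, 5 genes were higher and 1 lower, against 1.48% and 3.26% of all features (4.73% called). OAS1 already had 3302 and 3390 normalized counts with CSKi and 2603 and 2573 in vehicle (0.37 ± 0.05). OAS2 had 2463 and 2558 with CSKi and 1963 and 1943 in vehicle (0.36 ± 0.05). STAT2 had 5537 and 5584 against 4898 and 4949 (0.18 ± 0.05). SAMD9, an antiviral protein of the sterile alpha motif family, had 1838 and 1995 against 1508 and 1588 (0.31 ± 0.09). None of these pairs overlapped. The calls of STAT2, SAMD9 and DDX60 (0.33 ± 0.10) were lost without any 1 of the 4 libraries at 3 h. Their adjusted p reached 0.185, 0.375 and 0.218. Without vehicle replicate 2, CSKi replicate 1 or CSKi replicate 2, 3 genes were called.

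TRAFD1 had the smallest p of the 45 genes at both 3 and 6 h. It had 4294 and 4538 normalized counts with CSKi and 7043 and 6691 in vehicle at 3 h (-0.64 ± 0.04), and 4738 and 4554 against 6917 and 6686 at 6 h (-0.55 ± 0.04). At 1 h it had 6850 and 6738 against 6686 and 6714, and was not called (0.02 ± 0.04). At 6 h, 7 genes were higher and 1 was lower, against 5.67% and 6.98% of all features. ISG20 had 962 and 986 with CSKi and 553 and 603 in vehicle (0.76 ± 0.09). OAS1 had 3507 and 3150 against 2494 and 2367 (0.45 ± 0.05), STAT2 had 5793 and 5689 against 4868 and 4608 (0.28 ± 0.05), and OAS2 had 2442 and 2546 against 2080 and 1936 (0.31 ± 0.05). None of these groups overlapped. TRIM22, SAMD9L and MX2 were also higher by 0.16 to 0.27, with SAMD9L and MX2 losing their calls without CSKi replicate 2. All 5 genes higher at 3 h and all 7 higher at 6 h were also higher at 24 h, when 66.7% of the 45 genes and 27.9% of all features were. This overlap was not tested and not counted over all features. ISG15 was at 0.01 ± 0.07 at 3 h and -0.02 ± 0.07 at 6 h, and MX1, IRF7 and IRF9 were not called at either time.

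The levels of these 4 genes in the CSKi arm before 24 h were as follows. ISG15 with CSKi had 2896 and 2436 normalized counts at 1 h, 2183 and 2327 at 3 h and 1646 and 1788 at 6 h. MX1 had 4573 and 4375, then 5036 and 5670, then 4170 and 4102. IRF7 had 1007 and 959 at 1 h, 766 and 733 at 3 h and 522 and 548 at 6 h, so that its low at 6 h was present in both arms. IRF9 had 2187 and 2349 at 1 h, 2773 and 2831 at 3 h and 2429 and 2582 at 6 h. Both IRF9 libraries lay below vehicle at 1 h (-0.15 ± 0.05, adjusted p = 0.933) and above it at 3 and 6 h, without a call. At 1 h STAT2 with CSKi had 5394 and 5749, and OAS1 had 2601 and 2603, neither called.

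Each time had its own vehicle libraries, so the CSKi difference could be compared between times. The signed log2 difference was higher at 24 h than at 6 h in 17 of 45 genes and lower in 1 (IFI16), against 15.4% and 14.1% of all features (29.6% called). The change of the log2 difference from 6 to 24 h was 0.92 ± 0.07 for OAS1, 0.99 ± 0.15 for IFIT2, 0.75 ± 0.13 for ISG20 and 0.55 ± 0.06 for STAT2. IRF7 (0.54 ± 0.10) and IRF9 (0.35 ± 0.08) also passed. IFIT3 (-0.38 ± 0.13 at 6 h, 0.33 ± 0.13 at 24 h) and IFIT1 (-0.28 ± 0.17 and 0.49 ± 0.17) differed in sign between the times, and neither was called at 6 h. TRAFD1 was at 0.01 ± 0.06 (adjusted p = 0.902).

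Interferon-stimulated genes declined in TMD8 vehicle during culture. At 24 h against 1 h, 29 of 45 genes were lower and 3 were higher, while 23.9% of all features were lower and 22.8% higher. The median log2 difference was -0.32 over the genes and -0.01 over all features. ISG15 had 2546 and 2607 normalized counts at 1 h, 2258 and 2206 at 3 h, 1778 and 1707 at 6 h and 1276 and 1376 at 24 h (24 h against 1 h, -0.96 ± 0.07). No 2 of these groups overlapped, and each later time lay below the earlier one. All 5 transcription factors and all 5 tested OAS genes and RNA effectors were lower at 24 h. Marker sums moved between the same libraries. From 1 to 24 h in vehicle, the B cell markers went from 95955.2 and 96684.3 to 83751.3 and 84887.8, and the myeloid markers from 124.1 and 157.7 to 84 and 104.1. The 5 germinal centre type markers went from 3621.1 and 3567.8 to 5037.5 and 5019.7. Their part in the result was not tested.

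The 4 genes after ISG15 by p were IFI27, IFI35, MX1 and HERC6. IFI27, a mitochondrial protein, had 860 and 937 normalized counts at 1 h, 853 and 815 at 3 h, 678 and 645 at 6 h and 334 and 325 at 24 h (-1.45 ± 0.10). IFI35 had 1261 and 1245, then 1154 and 1222, then 1085 and 1054, and finally 788 and 760 (-0.69 ± 0.06). MX1 had 4634 and 4339 at 1 h and 4673 and 4837 at 3 h, then 4378 and 3712 at 6 h and 2914 and 2567 at 24 h (-0.71 ± 0.07). The greater part of the MX1 and IFI27 fall came after 6 h, since their 24 h against 6 h differences were -0.56 ± 0.07 and -1.01 ± 0.10. HERC6 had 1089 and 1021 at 1 h, 1056 and 1030 at 3 h, 984 and 943 at 6 h and 664 and 602 at 24 h (-0.74 ± 0.08).

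The course differed between genes. At 3 h, 9 genes were lower than at 1 h and 0 higher by limma (9.68% of features each way), with 16 of 45 at an unadjusted p under 0.05 and 6 called by voom. Without 1 h replicate 1, 1 h replicate 2 or 3 h replicate 2, the count at 3 h was 4, 4 and 5, and BST2 and STAT2 kept their calls in each fit. At 6 h, 17 were lower and 0 higher (12.4% and 11.2%), with 25 at an unadjusted p under 0.05 and 17 called by voom. From 6 to 24 h, 19 were lower and 7 higher (20.9% and 20.6%). IRF7 had 915 and 957 normalized counts at 1 h, 752 and 775 at 3 h, 585 and 543 at 6 h and 735 and 768 at 24 h. BST2 followed the same order, with 2835 and 2738, then 2119 and 2104, then 1609 and 1529, and 2298 and 2207 at 24 h. Both were lowest at 6 h and rose by 24 h, by 0.41 ± 0.07 and 0.52 ± 0.05. STAT2 had 5789 and 5713 at 1 h and 4898 and 4949 at 3 h, a fall of 0.22 ± 0.05, and 0.36 ± 0.05 by 24 h. IRF9 had 2625 and 2425 at 1 h, 2667 and 2700 at 3 h and 2344 and 2412 at 6 h, and was called at 24 h (-0.32 ± 0.05) but at neither earlier time. The genes higher at 24 h than at 1 h were IFI16 (0.46 ± 0.05), PSMB9 (0.22 ± 0.07) and TRAFD1 (0.18 ± 0.04), and PSMB9 lost its call without either 1 h library or 24 h replicate 1.

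The vehicle libraries at 24 h enter both this comparison and that of CSKi against vehicle, so each arm is given against its own 1 h libraries, side by side and without a test. In the vehicle arm, both 24 h libraries lay below both 1 h libraries in 34 of 45 genes and above in 5, against 37.7% and 35.9% of all features. In the CSKi arm they lay below in 19 and above in 15, against 34.4% and 35.7%, and overlapped in 11. OAS1 was 0.97 above its 1 h mean on the log2 scale with CSKi, ISG20 0.70, IFIT2 0.64, STAT2 0.52 and OAS2 0.41, so that these levels exceeded the 1 h level. ISG15 was at -0.69 with CSKi and -0.96 in vehicle, MX1 at -0.46 and -0.71, and IFIT3 at -0.81 and -1.11. These 3 genes ended below their 1 h level in both arms. OAS3 was at 0.14 with CSKi and -0.64 in vehicle. IFI27 was at -1.69 and -1.45, and TRAFD1 at -0.38 and 0.18.

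**Figure D4:**
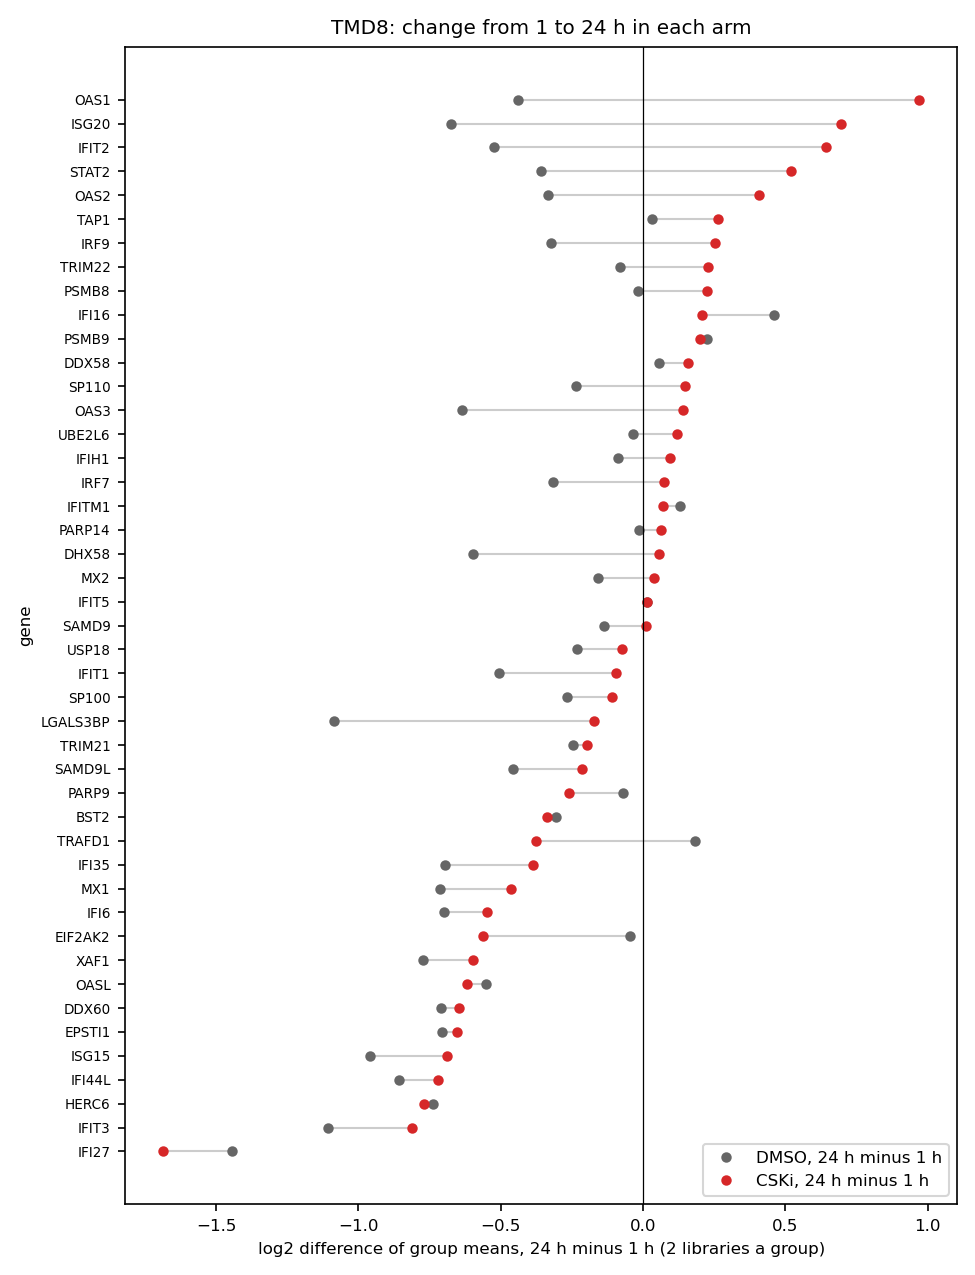
Log2 difference of the 24 h and 1 h group means in TMD8 (x axis) for the 45 tested genes (y axis, ordered by the CSKi arm), 2 libraries a group. Grey points are DMSO and red points CSKi, and a line joins the arms of a gene. Most grey points lie left of 0, and the red points range from -1.69 for IFI27 to 0.97 for OAS1.

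In DOHH2, the genes called with CSKi were mostly those at 3 h, and many of these calls depended on a single library. At 1 h, SAMD9 alone was higher (0.34 ± 0.09, adjusted p = 0.0474), with 1207 and 1037 normalized counts against 919 and 849, while 2.05% of features were called, 0.825% higher and 1.23% lower. The call was lost without either vehicle library or CSKi replicate 1. At 3 h, 11 of 47 genes were higher and 1 was lower, against 7.28% and 7.27% of all features, and the median log2 difference was 0.25 against 0.00. Of these 12, 8 of the genes that were higher and the lower gene, PARP9, lost their calls without at least 1 library. The 3 kept without any library were SP110, SP100 and TRIM22.

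SP110 had 2446 and 2035 normalized counts with CSKi at 3 h and 1426 and 1484 in vehicle (0.62 ± 0.07, adjusted p = 1.49e-07). SP100, a component of PML nuclear bodies, had 2222 and 2104 against 1556 and 1586 (0.46 ± 0.05, adjusted p = 6.84e-07). Both CSKi libraries lay above every other DOHH2 library for SP110 and for SP100. TRIM22, a restriction factor of the tripartite motif family, had 4811 and 3541 against 3214 and 2866 (0.44 ± 0.08). IFI16 had 13438 and 11308 against 10558 and 9940 (0.27 ± 0.05). IFITM1, a membrane protein that blocks virus entry, had 3394 and 2434 against 2172 and 2122 (0.42 ± 0.09). In all 5 the groups did not overlap, and replicate 1 exceeded replicate 2 with CSKi.

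CSKi replicate 1 at 3 h lay above replicate 2 in 45 of the 46 genes tested in the fit of both lines, by a median of 0.47 on the log2 scale, against 0.00 over all features. OAS1 had 1902 and 1050 normalized counts with CSKi and 1050 and 968 in vehicle, so that the groups met although the gene was called (0.49 ± 0.15, adjusted p = 0.0321). MX1 had 3769 and 1546 with CSKi and 1884 and 1677 in vehicle, and ISG15 had 1899 and 1273 against 1316 and 1373. Replicate 2 lay below both vehicle libraries for MX1 and ISG15, and neither gene was called. IRF7 had 997 and 548 against 646 and 612, and IRF9 had 1453 and 974 against 1018 and 952. Both pairs overlapped, with replicate 1 high. STAT2 was more even, at 2056 and 1923 against 1730 and 1735 (0.20 ± 0.05), but lost its call without CSKi replicate 1 or either vehicle library. Without CSKi replicate 1, 4 genes were called. Without CSKi replicate 2, 33 were. Without vehicle replicate 1 or replicate 2, 7 and 6 genes were called. Depth was 16882184 reads in CSKi replicate 1 and 19406543 in replicate 2. The myeloid markers summed to 291.9 and 258 with CSKi and 199.1 and 198.3 in vehicle. The plasmacytoid dendritic cell list summed to 11358 and 11541.1 against 9029.9 and 8741.5, with CLEC4C and GZMB at 0. That list was mostly TCF4, which averaged 5850 reads in DOHH2, against 36.5 for IL3RA and 4.38 for LILRA4. The part of these genes in the result was not tested.

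At 6 h, 4 of 47 genes were higher (8.51%) and 0 lower, against 6.96% and 6.67% of all features. The share called higher was thus near that over all features. STAT2 had 2320 and 2340 normalized counts with CSKi and 1766 and 1970 in vehicle (0.32 ± 0.05, adjusted p = 0.000117), and kept its call without any library. IFI27 had 190 and 263 against 162 and 154 (0.50 ± 0.16). SP100 had 1358 and 1424 against 1264 and 1215 (0.17 ± 0.05). ISG20 had 1654 and 1839 against 1450 and 1567 (0.21 ± 0.07). These groups did not overlap, but IFI27, SP100 and ISG20 each lost their calls without at least 1 library. MX1 had 813 and 1276 with CSKi and 971 and 879 in vehicle, ISG15 886 and 1282 against 940 and 1004, IRF7 450 and 712 against 437 and 472, and IRF9 675 and 818 against 705 and 707. OAS1 had 784 and 1073 against 694 and 698. None of these 5 was called, and the groups overlapped in MX1, ISG15, IRF7 and IRF9 but not in OAS1. Here CSKi replicate 2 lay above replicate 1 in 42 of 46 genes, by a median of 0.22, against 0.00 over all features. With vehicle replicate 1, vehicle replicate 2 or CSKi replicate 2 left out, 1, 2 and 1 genes were called, and with CSKi replicate 1 left out, 8. With the 24 h libraries kept in the fit, 3 genes were called at 3 h and 0 at 6 h and 1 h.

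**Figure D5:**
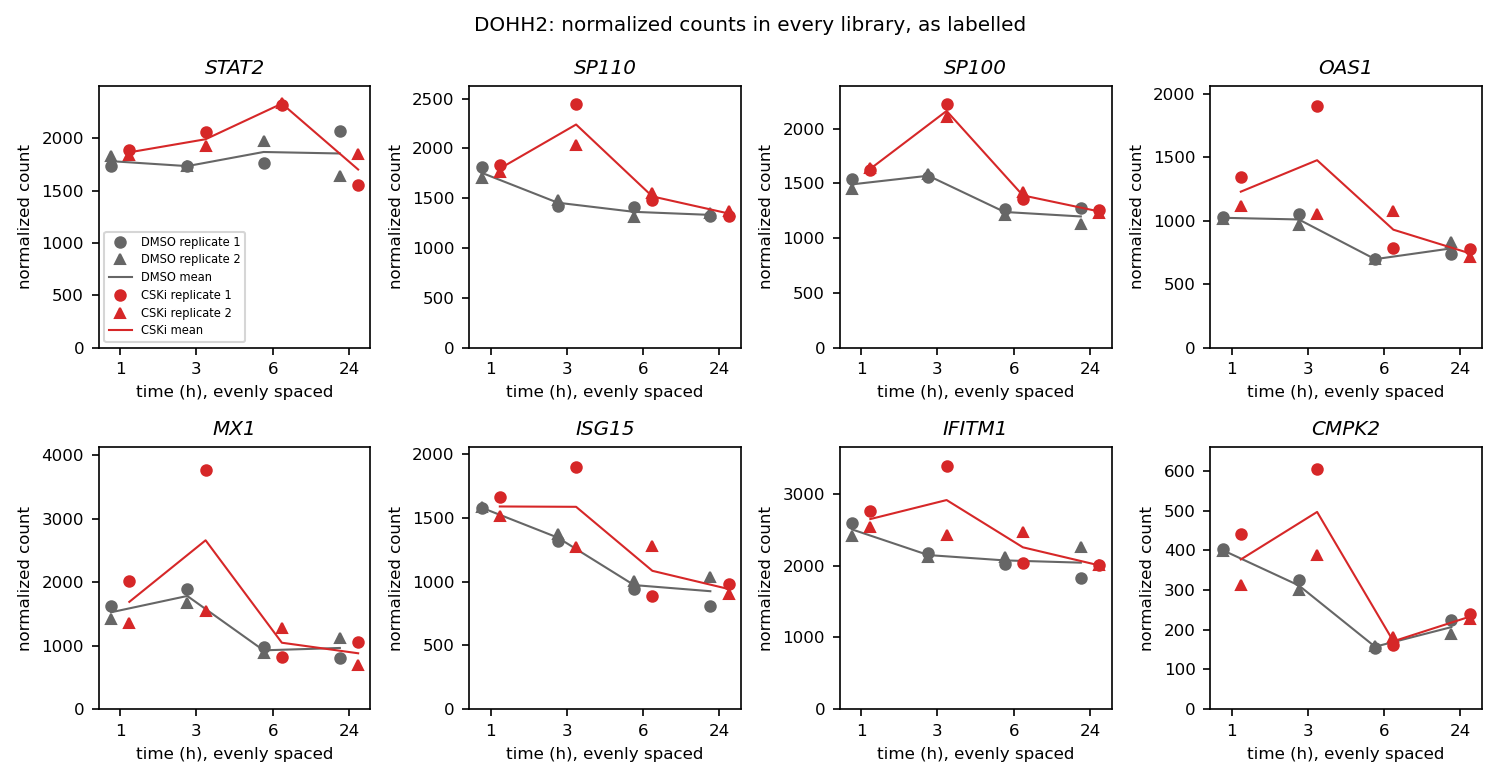
Normalized counts (y axis, from 0) of 8 genes in every DOHH2 library at 1, 3, 6 and 24 h (x axis, times evenly spaced), as labelled. Grey is DMSO and red CSKi, circles are replicate 1, triangles replicate 2 and lines join group means. At 3 h both CSKi libraries are high for SP110 and SP100, whereas for OAS1, MX1 and ISG15 replicate 1 is high and replicate 2 lies near vehicle.

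At 24 h the DOHH2 labels did not match the libraries' likeness. Over the genes, vehicle replicate 1 differed from CSKi replicate 2 by an SD of 0.20 on the log2 scale and from its own duplicate by 0.34. Vehicle replicate 2 differed from CSKi replicate 1 by 0.22, and the 2 CSKi libraries differed by 0.41. As labelled, 0 of 47 genes were called by limma, with 0 at an unadjusted p under 0.05 and 0 called by voom, and 0% of all features were called. STAT2 had 1549 and 1852 normalized counts in the libraries labelled CSKi and 2066 and 1641 in those labelled DMSO. OAS1 had 773 and 712 against 734 and 829, ISG15 had 980 and 903 against 810 and 1039, and MX1 had 1056 and 702 against 803 and 1121. The groups overlapped for STAT2, ISG15 and MX1, and for OAS1 as well, and no direction is read from them.

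Interferon-stimulated genes also declined in DOHH2 vehicle. At 6 h against 1 h, 33 of 47 genes were lower and 1, the ADP-ribosyltransferase PARP14, was higher by 0.32 ± 0.07, while 43.7% of features were called, 23.4% lower and 20.3% higher. The median log2 difference was -0.43 over the genes and -0.02 over all features. In TMD8 over the same hours the genes' median was -0.15, and the difference between lines was not tested. IFIT3 had 873 and 885 normalized counts at 1 h, 490 and 428 at 3 h and 306 and 283 at 6 h (-1.58 ± 0.15). IFIT1 had 142 and 136 at 1 h and 46.1 and 32.3 at 6 h (-1.85 ± 0.25). CMPK2 had 403 and 398 at 1 h, 324 and 299 at 3 h and 154 and 160 at 6 h (-1.35 ± 0.15). No 2 of the groups named overlapped. OASL (-1.79 ± 0.38), RSAD2 (-1.13 ± 0.24) and IFI6 (-1.02 ± 0.21) fell by more than 1 log2 unit as well.

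ISG15 in DOHH2 vehicle had 1574 and 1586 normalized counts at 1 h, 1316 and 1373 at 3 h and 940 and 1004 at 6 h (6 h against 1 h, -0.70 ± 0.12). MX1 had 1626 and 1422, then 1884 and 1677, then 971 and 879 (-0.72 ± 0.23), and IRF7 had 808 and 639, then 646 and 612, then 437 and 472 (-0.66 ± 0.18). All 3 antigen processing genes fell, by 0.34 ± 0.05 for PSMB8, 0.38 ± 0.06 for PSMB9 and 0.16 ± 0.05 for TAP1. STAT2 was at 0.07 ± 0.05 and TRAFD1 at 0.04 ± 0.05, neither called. At 3 h against 1 h, 11 genes were lower and 2 higher, against 17.3% and 16.5% of features. That count of 13 was 6 without replicate 1 of either time and 8 without replicate 2 of either time. Of the 34 calls at 6 h, 18 held in every alternative setting and without any library, and without vehicle replicate 1 at 1 h 22 genes were called. Of the genes lower at 6 h, 15 were lower in both lines, which is 88.2% of the 17 in TMD8 and 45.5% of the 33 in DOHH2. They include ISG15, OAS1, OAS3, IRF7, IFIT3, IFI6 and BST2. Of all the genes tested, 37.8% were lower in TMD8 and 70.2% in DOHH2, so many shared calls are expected. The overlap was not tested and not counted over all features. The 5 B cell markers summed to 37084.1 and 37304.1 in DOHH2 vehicle at 1 h and to 31347.1 and 31995.9 at 6 h, and their part in the result was not tested.

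Most interferon-stimulated genes differed between the lines in vehicle, as did most features. Over vehicle at 1, 3 and 6 h, 28 of 46 genes were higher in TMD8 and 16 lower, while 89.4% of features were called, 43.8% higher and 45.6% lower. The 2 not called were OASL and XAF1. Libraries of the lines overlapped in 8 of the called genes, among them IRF7, IFIT3 and TAP1. All 5 transcription factors were higher in TMD8, led by IRF9 (1.56 ± 0.07) and STAT2 (1.51 ± 0.03), and so were the 4 tested genes of the ISG15 pathway and 4 of 5 RNA sensors. In the ISG15 pathway, USP18 had libraries that overlapped between the lines and lost its call with quantile normalization. Its difference ranged from 0.125 to 0.416 over the alternatives and left-out libraries. HERC6 (4.24 ± 0.10), IFIH1 (3.12 ± 0.06) and SAMD9L (3.12 ± 0.09) were higher in TMD8 by over 3 log2 units. IFIT5 averaged 244 reads in TMD8 and 3.25 in DOHH2, and IFI44 averaged 19.4 reads in TMD8 and 165.6 in DOHH2. Each passed the filter only through the line where it was high, so its call in the counts above follows from the filter and no difference is given for it. IFITM1 (-5.48 ± 0.10), LGALS3BP (-4.63 ± 0.07) and IFI44L (-3.07 ± 0.21) were higher in DOHH2. Within the OAS family OAS1 was higher in TMD8 (1.52 ± 0.09) while OAS2 (-0.55 ± 0.07), OAS3 (-1.73 ± 0.05) and the exonuclease gene ISG20 (-1.63 ± 0.05) were higher in DOHH2. In IFITM1, TMD8 libraries held 35.3 to 79.6 normalized counts and DOHH2 libraries 1824 to 3394.

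The response to CSKi was compared between lines at 3 and 6 h. At 3 h it was lower in TMD8 for TRAFD1 (difference of log2 differences -0.67 ± 0.05), SP110 (-0.54 ± 0.10) and SP100 (-0.33 ± 0.07) and higher for none of 46 genes by limma, against 2.64% and 2.18% of all features (4.82% called). Of the 46, 9 had an unadjusted p under 0.05, and voom called 3. These 3 calls held in every alternative setting and without any library, and without DOHH2 CSKi replicate 2 at 3 h the count was 11, all lower in TMD8, and without replicate 1 it was 6, 3 each way. At 6 h the response was lower in TMD8 for TRAFD1 (-0.55 ± 0.05) and higher for ISG20 (0.54 ± 0.13), against 3.46% and 2.52% of features. The share of the genes called, 6.52% at 3 h and 2.17% each way at 6 h, was near that over all features. ISG20 lost its call without DOHH2 CSKi replicate 1, DOHH2 vehicle replicate 2 or TMD8 vehicle replicate 1, which left 1 gene called. TRAFD1 in DOHH2 had 2111 and 2062 normalized counts with CSKi at 3 h and 1995 and 2084 in vehicle, which overlapped.

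Interferon genes themselves had almost no reads. Of 21 interferon genes in the table, 11 had no read in TMD8 and 16 had none in DOHH2, and the highest count in any library was 3 reads, for IFNW1 in TMD8 and IFNB1 in DOHH2. The receptor genes IFNAR1 and IFNAR2 averaged 642 and 777 reads in TMD8 and 1380 and 985 in DOHH2. A list of 38 genes that transmit or restrain interferon and nucleic acid signals had 31 tested in TMD8 and 27 in DOHH2. In TMD8 with CSKi at 3 h, 1 of the 31 was higher and 6 were lower (3.23% and 19.4%), against 1.48% and 3.26% of all features. At 6 h, 1 was higher and 7 were lower (3.23% and 22.6%), against 5.67% and 6.98%. At 24 h, 11 were higher and 12 lower (35.5% and 38.7%), against 27.9% and 26.2%.

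Among the genes of that list, SOCS3, a feedback inhibitor of cytokine receptors, was lower with CSKi in TMD8 by 0.39 ± 0.07 at 3 h, 0.70 ± 0.07 at 6 h and 1.88 ± 0.07 at 24 h. In TMD8 vehicle SOCS3 rose by 1.92 ± 0.07 from 1 to 24 h. The same vehicle libraries at 24 h enter this rise and the CSKi difference at 24 h, so the values are not independent. PTPN6, the phosphatase SHP-1, was lower in TMD8 by 0.75 ± 0.03 at 3 h, 1.22 ± 0.03 at 6 h and 0.40 ± 0.03 at 24 h, and lower in DOHH2 by 0.82 ± 0.05 at 3 h and 0.61 ± 0.05 at 6 h. STAT3 fell by 0.96 ± 0.04 and IRF4 by 0.52 ± 0.03 at 24 h in TMD8, and IRF8 rose by 0.78 ± 0.05. IFNAR1 and IFNAR2 were not called in TMD8 with CSKi at 24 h (0.12 ± 0.09 and 0.15 ± 0.07).

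The calls were also counted by the presence of the response element core in the promoter window. In TMD8 with CSKi at 24 h, 15 of 23 tested genes with the core were higher and 3 lower, and 9 of 13 without it were higher and 1 lower, while 27.9% of all features were higher and 26.2% lower. In TMD8 vehicle at 24 h against 1 h, 14 of 23 genes with the core were lower and 0 higher, and 9 of 13 without it were lower and 2 higher, while 23.9% of features were lower and 22.8% higher. In DOHH2 vehicle at 6 h against 1 h 17 of 24 genes with the core were lower and 1 higher, and 10 of 14 without it were lower and 0 higher, against 23.4% and 20.3% of features. The difference between the classes was not tested. Among the promoters printed above, OAS1, whose window holds no match of the response element core, and ISG20 and OAS3, whose windows hold 1 and 2 matches, all rose with CSKi in TMD8 at 24 h. The OAS1 window does hold GAAACGAAA, with 1 base between the repeats, which the search pattern could not match. OAS1 is therefore no example of a gene without the element.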

How the data were processed

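The deposited table held log2 normalized gene expression values made by the authors, 0 where a feature had no reads, with the total mapped reads of each library as a last entry. Per the labels' protocols, libraries were stranded mRNA libraries. Counting with HTSeq on hg19 is recorded per the submitters' processing notes. The aligner, the strand setting of the counting, the version of HTSeq and the origin of the scaling factor are named neither in the labels nor in the file, and so were not given in the sources used. Values taken back to the linear scale were whole multiples of 1 read, within 0.1 read, for at least 99.63% of values up to 300 reads, so reads were recovered for a voom alternative. Depth was 12273442 to 24907030 mapped reads a library.

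Groups were taken from the labels. Differences were tested two-sided with limma 3.58.1 (R 4.3.3) on the deposited log2 values, using group means, a trend of the variance with the mean level and p-values adjusted by Benjamini-Hochberg across the 12000 most highly expressed features of each fit, with calls at an adjusted p under 0.05. TMD8 was fitted on 16 libraries and DOHH2 on the 12 at 1, 3 and 6 h. The fit of DOHH2 at 24 h used all 16 of its libraries, and that of both lines used 28. The scripts were tested on simulated data. Tables, promoter searches and plots used Python 3.11.15, pandas 2.3.3 and matplotlib 3.10.9. The genes, role groups and lists of regulators and markers were chosen with earlier results of these data known. Values of every library were given for the 5 genes of smallest p in each TMD8 treatment comparison from 3 h, the DOHH2 ones at 3 and 6 h and TMD8 vehicle at 24 h against 1 h, and for ISG15, MX1, OAS1, STAT2, IRF7 and IRF9. Alternatives covered the filter, pseudocount, scaling, variance model, voom, the samples in the fit, a replicate block and each library left out. Results for some items are not reported here.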

Additional observations from a re-analysis of the deposited data

Results flagged for a closer look

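The TMD8 response to CSKi differed between 24 h and 6 h in 18 of 45 genes, while 29.6% of all features were called. This is limma's test of the difference itself, given as the log2 response at 24 h minus that at 6 h, with its SE. Genes whose signed log2 response was higher at 24 h than at 6 h by over 0.5 were OAS1 (0.92 ± 0.07, adjusted p = 4.8e-10), STAT2 (0.55 ± 0.06, adjusted p = 4.26e-07), OAS3 (0.71 ± 0.10, adjusted p = 3.37e-06), OAS2 (0.51 ± 0.08, adjusted p = 1.43e-05), IFIT2 (0.99 ± 0.15, adjusted p = 1.65e-05), ISG20 (0.75 ± 0.13, adjusted p = 6.6e-05), IRF7 (0.54 ± 0.10, adjusted p = 0.000234), DHX58 (0.56 ± 0.12, adjusted p = 0.00102), IFIT3 (0.70 ± 0.18, adjusted p = 0.00495) and IFIT1 (0.77 ± 0.24, adjusted p = 0.0179). IFIT3 went from -0.38 at 6 h to 0.33 at 24 h and IFIT1 from -0.28 to 0.49. Genes higher by less than 0.5 were IRF9 (0.35 ± 0.08, adjusted p = 0.00108), SP110 (0.30 ± 0.08, adjusted p = 0.0054), ISG15 (0.34 ± 0.09, adjusted p = 0.00709), TRIM22 (0.16 ± 0.05, adjusted p = 0.0184), XAF1 (0.45 ± 0.15, adjusted p = 0.0214), IFI35 (0.27 ± 0.09, adjusted p = 0.0225) and DDX60 (0.37 ± 0.13, adjusted p = 0.0409). IFI16 changed the other way (-0.21 ± 0.07, adjusted p = 0.0299). Without any library and in every setting, 10 of the 18 kept their calls.

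The response at the same time differed between lines in 5 comparisons, given as TMD8 minus DOHH2. Of 46 genes, 3 were called at 3 h (6.52%) and 2 at 6 h (2.17% each way), while 4.82% and 5.98% of all features were called. These shares were near those over all features, so the counts are not particular to these genes. At 3 h these were TRAFD1 (-0.67 ± 0.05, adjusted p = 3.83e-08), SP110 (-0.54 ± 0.10, adjusted p = 0.0014) and SP100 (-0.33 ± 0.07, adjusted p = 0.00529). At 6 h they were TRAFD1 (-0.55 ± 0.05, adjusted p = 2.29e-07) and ISG20 (0.54 ± 0.13, adjusted p = 0.00961). ISG20 lost its call without 1 of 3 libraries, namely TMD8 vehicle replicate 1, DOHH2 vehicle replicate 2 and DOHH2 CSKi replicate 1 at 6 h.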

How the results depend on the processing

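No called value changed direction. Over 264 called gene values, 3961 refits (other settings and left-out libraries) kept 3468 calls and lost 493, with 0 reversed. Without the filter on low values, 3 genes were called in TMD8 with CSKi at 3 h, and in DOHH2 with CSKi 0 at 1 h, 2 at 3 h and 1 at 6 h, and in DOHH2 vehicle 7 at 3 h and 20 at 6 h against 1 h. Without the variance trend, the same comparisons gave 3, then 0, 3 and 1, then 5 and 20, and TMD8 vehicle at 3 h against 1 h gave 5. Fitting only the groups compared gave 11 for TMD8 CSKi at 3 h, 23 at 24 h, 3 for DOHH2 CSKi at 1 h, and 15 and 26 for vehicle at 3 h against 1 h in TMD8 and DOHH2. Keeping the DOHH2 libraries at 24 h gave 0, 3 and 0 for DOHH2 CSKi at 1, 3 and 6 h, 5 and 20 for its vehicle at 3 and 6 h, and 1 for the difference between lines at 6 h. For DOHH2 CSKi at 1 h, quantile normalization, scaling to total mapped reads and voom each gave 0. At 6 h voom gave 2. In TMD8 with CSKi at 3 h, the share of all features called moved too. It was 4.73% in the fit of all TMD8 libraries, 1.96% without the filter and 2.82% without the variance trend. With only the groups compared it was 9.97%. Causes were not tested.

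Leaving out 1 library gave 0 calls for TMD8 CSKi at 1 h, 3 to 4 at 3 h, 6 to 8 at 6 h and 23 to 32 at 24 h. For DOHH2 CSKi it gave 0 to 1 at 1 h, 4 to 33 at 3 h, 1 to 8 at 6 h and 0 at 24 h. For TMD8 vehicle it gave 4 to 6 at 3 h, 12 to 19 at 6 h and 28 to 30 at 24 h against 1 h, and 19 to 22 at 24 h against 6 h. For DOHH2 vehicle it gave 6 to 8 at 3 h and 22 to 30 at 6 h. The comparison of 24 h and 6 h responses gave 12 to 22, that of lines in vehicle 42 to 44, and those of responses between lines 3 to 11 at 3 h and 1 to 2 at 6 h. A left-out library leaves 1 in its group, which is assumed to vary like the others. For TMD8 CSKi at 3 h and at 6 h, fewer of all features were called as well in each such fit.

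Outside DOHH2 at 24 h, same-numbered libraries shared little beyond a number. The correlations of their deviations were -0.005 to 0.166 in TMD8 and 0.022 to 0.057 in DOHH2 before 24 h. In DOHH2 at 24 h the correlation was -0.475, so libraries of the same number tended to deviate in opposite directions. The cause was not tested. With a replicate block, calls went from 1 to 2 for DOHH2 CSKi at 1 h and from 4 to 7 at 6 h, and stayed within 1.5 times in the other comparisons. With crossed numbers at 24 h in DOHH2, chosen after seeing the data, 0 genes were called. With 2 libraries a group, small differences in genes of few reads could not be detected.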
